A study of Sus scrofa with 6 samples.

Results

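The nuclear factor of activated T cells (NFAT) genes and the genes of calcineurin, the phosphatase that controls them, were described in neonatal pig Sertoli cells (NPSC) without and with contact with human complement. The genes were NFATC2, which the study listed among its differentially expressed genes (DEG), and 9 further genes taken by symbol: NFATC1, NFATC3, NFATC4, NFAT5, PPP3CA, PPP3CB, PPP3R1, RCAN1 and RCAN2. Of these 10 genes, 9 were found among the 25149 genes of the deposited count tables. The pig identifier of PPP3R1, which encodes the regulatory subunit of calcineurin, was not listed there, so PPP3R1 was not analysed here. Since NFATC2 was chosen for its change in these same libraries, its values are given as a description, with no test. The other genes were added as its relatives and partners, with earlier results of these data known.

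Wild-type NPSC were isolated from testes of Duroc-Landrace piglets a few days old, collected from 3 litters, and were grown as a monolayer overnight in DMEM with 10% fetal bovine serum. Part of the medium was then replaced with DMEM (baseline NPSC, 3 plates) or for 90 min with an equal volume of pooled human serum whose complement had been preserved (complement NPSC, 3 plates). One bulk RNA library was sequenced per plate. No plate received serum without active complement, so complement and the other contents of human serum cannot be told apart. Nothing states which litter a plate came from, so p-values measure the spread between these plates, which may be technical.

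Calcineurin is a phosphatase that is switched on by calcium and calmodulin. It removes phosphates from NFATC1, NFATC2, NFATC3 and NFATC4, which then enter the nucleus and act on DNA together with partners such as AP-1. Kinases such as GSK3 and casein kinase 1 put the phosphates back. RCAN proteins bind calcineurin and restrain it, and RCAN1 is itself a well-known target of NFAT, with an isoform that starts at an internal promoter. NFAT5 has a related DNA-binding domain but responds to osmotic stress instead of calcineurin. NFAT is best known from T cells, where it drives cytokine genes, and it also acts in endothelium, muscle, bone and heart valves.

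Library totals were 6796183 to 8371923 counts in baseline NPSC and 3641518 to 6403606 in complement NPSC, and 17512 genes were tested. The libraries also differed in how densely 48 genes for olfactory receptors, best known from the nasal epithelium, were counted. This density was 2.15, 1.20 and 1.18 CPM (counts scaled to library size) per kb of exon in baseline replicates 1, 2 and 3 and 4.01, 4.43 and 1.51 in complement replicates 1, 2 and 3. Exon length times this density is called the expected background of a gene below. It came to between 5.25% (NFAT5) and 24.2% (NFATC1) of all counts of a gene in the set, so every gene was counted well above it. The expected background takes the density as even over genes, which did not hold everywhere. MYH11 and CYP11A1, used as cell markers below, had 0 counts in each library, and for ORAI2 the expected background came to 9212% of the counts. The background share of a single gene is thus a rough figure. All 9 genes passed the expression filter. Their exons overlapped those of 0 other genes of the files.

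In the cells at baseline, all 4 calcineurin-dependent factors, NFAT5, both catalytic calcineurin subunits and both RCAN genes were counted. Levels between genes are compared as CPM per kb of exon, which depends on how complete each gene model is: it held 7479 bp for NFATC2 but 1886 bp for NFATC3 and 701 bp for RCAN2. NFAT5 had the highest level per kb in baseline NPSC, 41.6 ± 2.57 (SD, n = 3), followed by PPP3CA at 36.6 ± 5.08 and RCAN1 at 30.8 ± 2.31 CPM per kb (SD, n = 3). The ranges of NFAT5 and PPP3CA overlapped, as did those of PPP3CA and RCAN1. NFATC3 followed at 21.5 ± 2.56 CPM per kb, with all 3 libraries below those of RCAN1. RCAN2 (18.7 ± 1.40) and PPP3CB (18.6 ± 3.02) had levels per kb whose ranges overlapped each other and that of NFATC3. NFATC2 had 13.9 ± 2.04, NFATC4 had 10.6 ± 1.84 and NFATC1 had 7.64 ± 0.804 CPM per kb (SD, n = 3), of which the range of NFATC1 lay below that of every other gene in the set. The ranges of PPP3CB and NFATC2 overlapped, as did those of NFATC2 and NFATC4. In complement NPSC the order per kb was NFAT5 (37.0 ± 10.1), RCAN1 (33.0 ± 11.0), PPP3CA (30.1 ± 7.13), NFATC2 (28.5 ± 11.4), PPP3CB (16.3 ± 3.99), NFATC3 (15.4 ± 2.41), NFATC4 (14.6 ± 1.91), RCAN2 (14.5 ± 2.46) and NFATC1 (10.3 ± 0.600) CPM per kb (SD, n = 3). Each gene overlapped the next in that order except RCAN2 and NFATC1. Among all tested genes, the baseline level per kb stood at percentile 88.4 for NFAT5, 60.7 for NFATC2 and 41.1 for NFATC1.

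**Figure D1:**
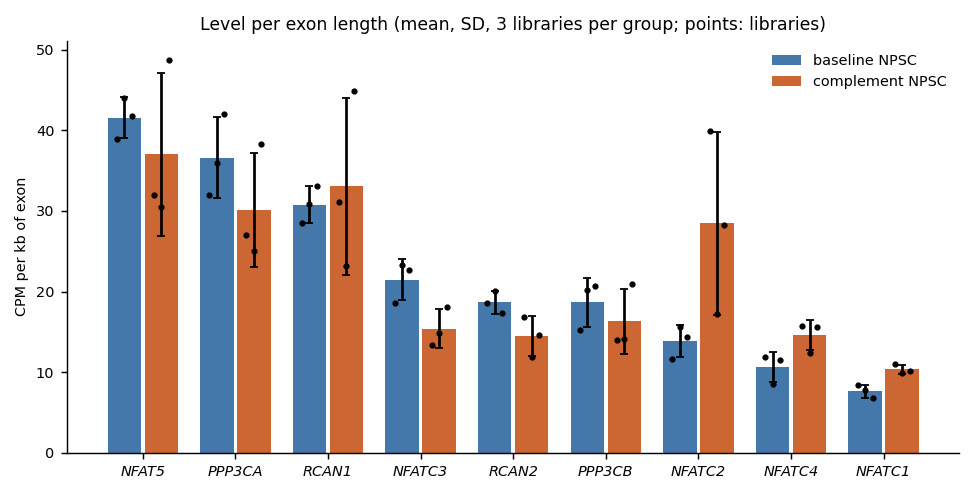
Level of the 9 genes as CPM per kb of exon (vertical axis) in baseline (blue) and complement (orange) NPSC, ordered by the baseline mean. Bars are means, error bars SDs and points the 3 libraries of each group. NFATC2 stood at 13.9 in baseline NPSC and at 28.5 in complement NPSC, where its SD was 11.4.

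NFATC2 (ENSSSCG00000007477), a factor best known for driving cytokine genes in T cells, lies on the minus strand of chromosome 17 from 59183330 to 59332006 in the coordinates of the files, whose build is not named. It was counted 600, 755 and 812 times in baseline replicates 1, 2 and 3 and 1341, 538 and 1219 times in complement replicates 1, 2 and 3. Scaled by library size, this was 87.0, 117 and 107 CPM in baseline NPSC and 298, 128 and 212 CPM in complement NPSC. All complement libraries lay above all baseline libraries, but complement replicate 2 exceeded the highest baseline library by little, and the spread was far wider after exposure: 104 ± 15.2 CPM at baseline against 213 ± 85.1 CPM after complement (SD, n = 3). The log2 fold change was 1.04 (SE 0.27), and 5.88% of all tested genes had one as large or larger. Both the highest and the lowest complement values came from the libraries with the highest olfactory receptor densities. Complement replicate 3, whose density was below that of baseline replicate 1, had 212 CPM of NFATC2 where that library had 87.0. This pair was picked after the values had been seen. The part of the density in the values of NFATC2 was not tested beyond a fit with it as a covariate, given below. After subtraction of the expected background, NFATC2 had 79.0, 101 and 92.5 CPM at baseline and 370.0, 139 and 191 CPM after complement, still with no overlap.

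Per kb of exon, NFATC2 moved from rank 7 of 9 in baseline NPSC to rank 4 of 9 in complement NPSC. Its share of the summed level per kb of NFATC1, NFATC2, NFATC3 and NFATC4 was 23.1%, 28.3% and 25.9% in the baseline libraries and 49.9%, 31.6% and 39.2% in the complement libraries. NFATC3 held the largest share in each baseline library, 36.8% to 42.1%, and 16.7% to 27.3% in complement NPSC. NFATC2 held the largest share in each complement library. The shares of NFATC1 (12.3% to 16.6% against 13.8% to 18.2%) and NFATC4 (15.4% to 23.6% against 19.7% to 22.9%) overlapped between the conditions. These shares use the same libraries that singled out NFATC2 and are a description.

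**Figure D2:**
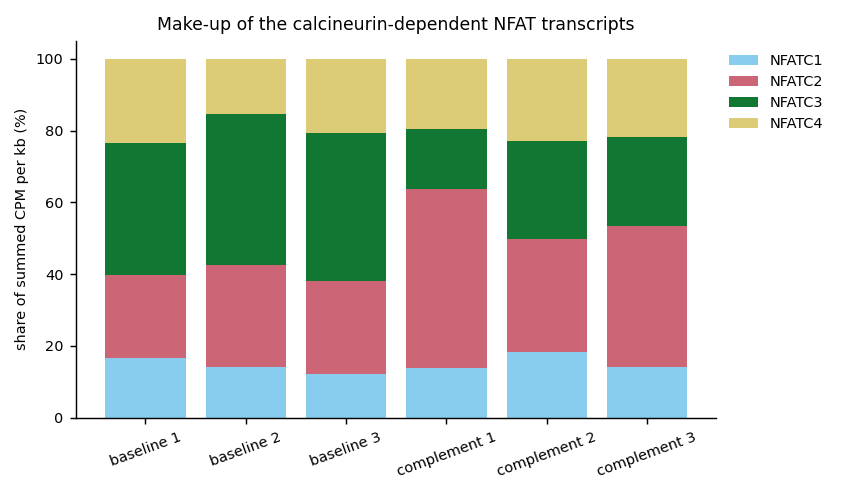
Share (%) of NFATC1, NFATC2, NFATC3 and NFATC4 in their summed CPM per kb of exon, 1 bar per library. NFATC3 was the largest part of each baseline bar and NFATC2 the largest part of each complement bar, from 31.6% to 49.9%.

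NFATC1 (ENSSSCG00000004856), a factor required in osteoclasts and heart valves, lies on the minus strand of chromosome 1 from 161527669 to 161632553. It had 22.6, 21.1 and 18.3 CPM in baseline replicates 1 to 3 and 29.8, 26.7 and 27.4 CPM in complement replicates 1 to 3. The groups did not overlap, and the log2 fold change was 0.44 (SE 0.21, 95% interval −0.0055 to 0.88, adjusted p = 0.331 by edgeR), which did not pass the threshold. NFATC1 was the least abundant gene of the set per kb, and its expected background came to 17.1% to 25.4% of its counts in the baseline libraries and to 16.6% to 39.0% in the complement libraries. NFATC4 (ENSSSCG00000001986), which is prominent in muscle and neurons, lies on the minus strand of chromosome 7 from 80189872 to 80200311. It had 36.5, 26.2 and 35.3 CPM at baseline and 48.5, 38.2 and 48.1 CPM after complement. Its groups did not overlap either, with a log2 fold change of 0.46 (SE 0.20, 95% interval 0.03 to 0.89) and an adjusted p of 0.312 by edgeR. The lowest complement value of NFATC4 lay near the highest baseline value.

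NFATC3 (ENSSSCG00000029578), which takes part in thymocyte and vascular development, lies on the plus strand of chromosome 6 from 25836326 to 25877196. It was lower, not higher, in complement NPSC: it had 34.9, 43.8 and 42.7 CPM in baseline NPSC and 25.1, 27.9 and 34.0 CPM in complement NPSC. The groups did not overlap, but complement replicate 3 and baseline replicate 1 were almost equal. The log2 fold change was −0.48 (SE 0.20, 95% interval −0.90 to −0.050, adjusted p = 0.306 by edgeR). The 2 lowest values came from complement replicates 1 and 2, the libraries with the highest olfactory receptor density, and the lowest baseline value came from baseline replicate 1, which had the highest density of its group. With this density on the log2 scale as a covariate, the log2 fold change was −0.20 for NFATC3, 0.36 for NFATC1, 0.48 for NFATC4 and 1.19 for NFATC2. Since the highest densities were those of complement replicates 1 and 2, such a fit cannot fully separate density from exposure.

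A ratio of 2 genes within a library does not depend on the scaling of libraries. Counts of NFATC1 per count of NFATC3 were 0.647, 0.481 and 0.429 in baseline replicates 1 to 3 and 1.19, 0.957 and 0.806 in complement replicates 1 to 3. Counts of NFATC4 per count of NFATC3 were 1.05, 0.597 and 0.827 at baseline and 1.93, 1.37 and 1.41 after complement. For NFATC2 this ratio was 2.49, 2.67 and 2.51 at baseline and 11.9, 4.60 and 6.22 after complement. None of the 3 ratios overlapped between the conditions. This had to follow, since NFATC1, NFATC2 and NFATC4 were higher and NFATC3 was lower without overlap in CPM, so it adds no evidence. The ratio to NFATC3 was chosen after the values of these genes had been seen and was not tested.

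**Figure D3:**
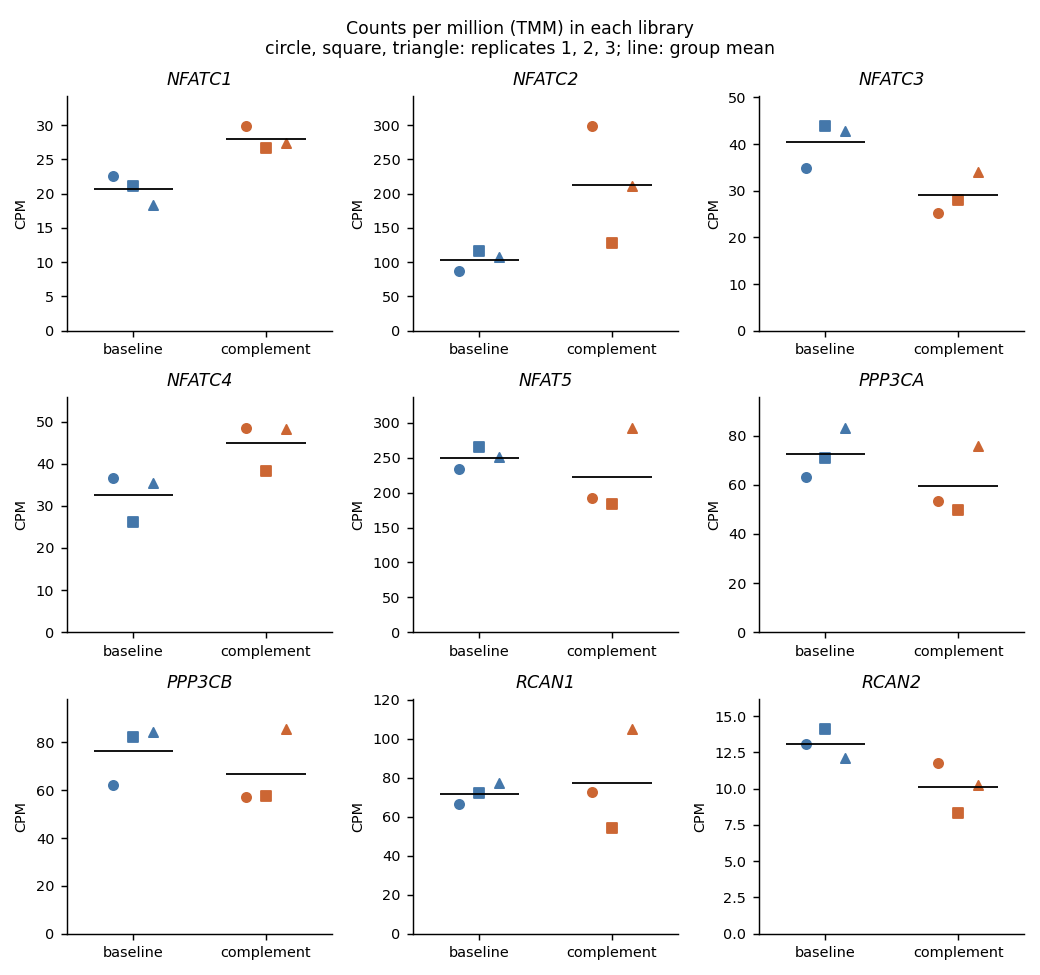
CPM (vertical axis, from 0) of each gene in the 3 baseline (blue) and 3 complement (orange) libraries, with replicates 1, 2 and 3 as circle, square and triangle and the group mean as a line. The groups do not overlap for NFATC1, NFATC2, NFATC3, NFATC4 and RCAN2, and they overlap for NFAT5, PPP3CA, PPP3CB and RCAN1.

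NFAT5 (ENSSSCG00000002755), the tonicity-responsive factor, lies on the minus strand of chromosome 6 from 16261577 to 16381887 and had 768 to 1911 counts per library, the most of the set in each library but complement replicate 1, where NFATC2 had more. It had 234, 265 and 252 CPM in baseline NPSC and 193, 183 and 293 CPM in complement NPSC. Complement replicates 1 and 2 lay below all baseline libraries and complement replicate 3 above them. The log2 fold change was −0.17 (SE 0.24, 95% interval −0.68 to 0.34, adjusted p = 0.702 by edgeR).

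For both catalytic subunits of calcineurin, complement replicates 1 and 2 were again the lowest libraries. PPP3CA (ENSSSCG00000009172), the alpha subunit, lies on chromosome 8 from 128461097 to 128798143 and had 63.2, 71.1 and 83.1 CPM at baseline and 53.4, 49.6 and 75.7 CPM after complement. PPP3CB (ENSSSCG00000010301), the beta subunit, lies on chromosome 14 from 82376236 to 82430844 and had 62.0, 82.4 and 84.3 CPM at baseline and 57.0, 57.5 and 85.5 CPM after complement. Complement replicate 3 lay within the baseline range for PPP3CA and just above it for PPP3CB. The log2 fold change was −0.28 (SE 0.21, 95% interval −0.72 to 0.16) for PPP3CA, with an adjusted p of 0.476 by edgeR. It was −0.19 (SE 0.21, 95% interval −0.65 to 0.26) for PPP3CB, with an adjusted p of 0.622 by edgeR. For PPP3CA, PPP3CB and NFAT5, the 3 lowest values came from complement replicates 1 and 2 and baseline replicate 1, the 3 libraries with the highest olfactory receptor density. The part of this density in the differences was not tested beyond a fit with it as a covariate, in which the log2 fold changes turned to 0.08 for PPP3CA, 0.22 for PPP3CB and 0.18 for NFAT5, with adjusted p of 0.986, 0.916 and 0.930 by edgeR.

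RCAN1 (ENSSSCG00000012050), the inhibitor of calcineurin that NFAT itself induces, lies on the minus strand of chromosome 13 from 207934802 to 207945091. Its model in the files has 4 exon blocks with 2337 bp, and counts per gene do not separate its isoforms. RCAN1 had 66.5, 72.0 and 77.3 CPM in baseline NPSC and 72.6, 54.2 and 105 CPM in complement NPSC, so the complement libraries lay below, within and above the baseline range. Its log2 fold change was 0.11 (SE 0.23, 95% interval −0.38 to 0.59, adjusted p = 0.804 by edgeR), which is the smallest in size of the 9 genes. Without complement replicate 3 it was −0.21 (adjusted p = 0.384 by edgeR), with olfactory receptor density as a covariate it was 0.51 (SE 0.18, adjusted p = 0.628 by edgeR), and after background subtraction it was 0.27. RCAN2 (ENSSSCG00000001716), a related regulator, lies on the minus strand of chromosome 7 from 47364221 to 47451615. It was the gene with the fewest counts, 35 to 92 per library. It had 13.0, 14.1 and 12.1 CPM at baseline and 11.8, 8.35 and 10.2 CPM after complement. Its groups were separated by a narrow gap, which closed when CPM were scaled by library totals, by upper quartiles or after background subtraction. The log2 fold change of RCAN2 was −0.37 (SE 0.28, 95% interval −0.95 to 0.22, adjusted p = 0.482 by edgeR).

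**Figure D4:**
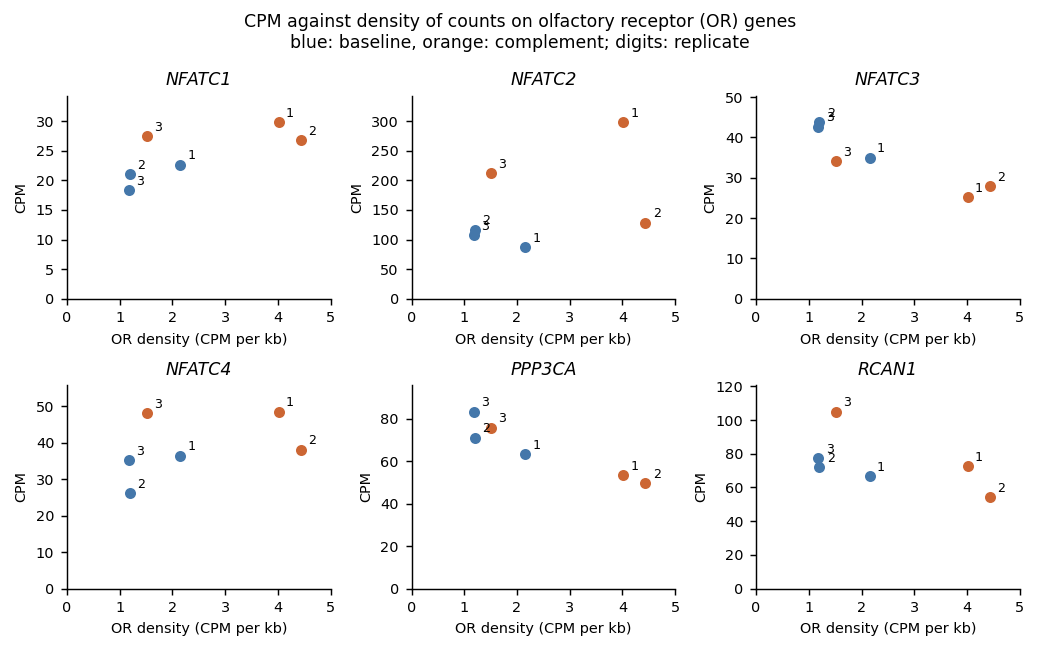
CPM of 6 genes (vertical axes, from 0) against olfactory receptor density (horizontal axes, CPM per kb of exon), with baseline libraries in blue, complement libraries in orange and the replicate number beside each point. PPP3CA and NFATC3 were lowest in complement replicates 1 and 2, at densities of 4.01 and 4.43, where NFATC2 had both its highest value and its lowest complement value.

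Of the 8 genes other than NFATC2, 0 passed an adjusted p of 0.05 with a log2 fold change beyond 0.7 in edgeR, where 0.103% of all tested genes did, and 0 passed in the DESeq2 Wald test. All tested genes split into 0.0914% called higher and 0.0114% called lower. Of these 8 genes, 1 (NFATC4) had an unadjusted p under 0.05 and was higher and 1 (NFATC3) was lower, where 10.9% and 4.28% of all tested genes were. Of the same 8, 2 were higher in complement NPSC without overlap of the groups (NFATC1, NFATC4) and 2 were lower (NFATC3, RCAN2), where 8.95% and 8.14% of all tested genes had such groups. With 3 plates against 3, the smallest two-sided p of an exact permutation test is 0.1. The median log2 fold change was −0.18 over these 8 genes and 0.018 over all tested genes. This small median moved with the fit. Over all 9 genes, NFATC2 included, it was −0.17, with olfactory receptor density as a covariate 0.22, and after background subtraction 0.0099. With 1 library left out, the median of the 9 ranged from −0.40 (without complement replicate 3) to −0.060 (without complement replicate 2). The direction of NFATC1, NFATC3, NFATC4 and RCAN2 was kept in all 15 alternative fits.

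**Figure D5:**
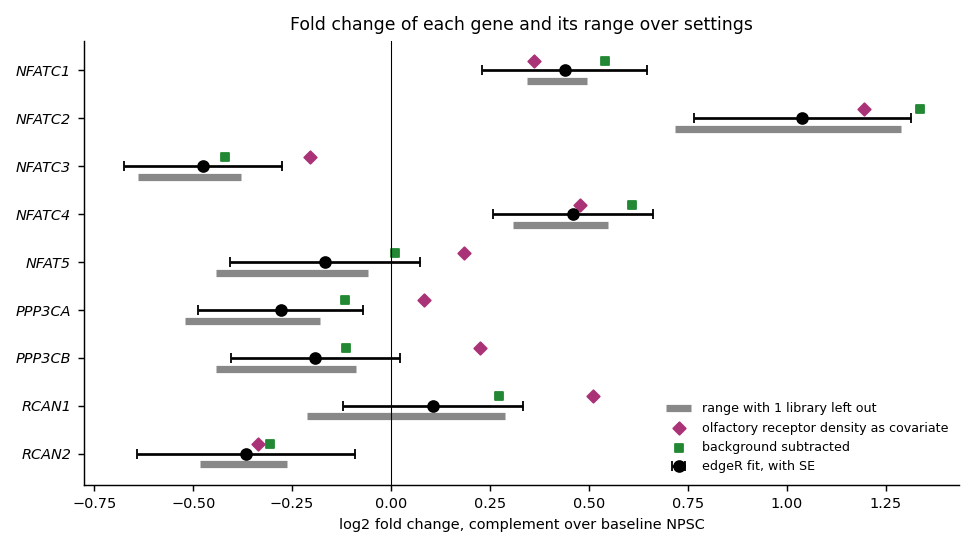
Log2 fold change of complement over baseline NPSC (horizontal axis) from edgeR with its SE (black), its range when 1 library is left out (grey bar), with olfactory receptor density as a covariate (diamond) and after background subtraction (square). NFATC2 stayed between 0.72 and 1.34, and NFAT5, PPP3CA, PPP3CB and RCAN1 lay on both sides of 0.

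The wider pathway was read from 5 lists written from general knowledge, with 67 genes, of which 47 were in the files under their symbol and 46 were tested. Only 2 of them, PTGS2 and EGR3, passed the threshold in edgeR, both higher, where 0.0914% of all tested genes were called higher. The machinery that switches NFAT on and off gave 0 calls in edgeR and 0 in DESeq2, where 18 of 17512 and 63 of 21858 tested genes were called, so that 0 in lists of this size says little. At an unadjusted p under 0.05, 10.9% of all tested genes were higher and 4.28% lower. Of 8 tested calcineurin regulators and calmodulins, 0 had an unadjusted p under 0.05, and their median log2 fold change was −0.16. The calmodulin genes CALM2 and CALM3 were among the most abundant of them per kb, with log2 fold changes of −0.14 and −0.36 (SE 0.29 and 0.21). Of 10 NFAT kinases and scaffolds, 1 (DYRK2, named after its values were seen) was lower at an unadjusted p under 0.05 and the median was −0.17. The kinases CSNK1A1, GSK3B and GSK3A, the most abundant per kb, had log2 fold changes of −0.15, −0.24 and −0.25 (SE 0.25, 0.25 and 0.21). Of 8 tested genes for store-operated calcium entry, 0 had an unadjusted p under 0.05 and the median was −0.088. PLCG1, which makes the messenger that opens calcium stores, the channel ORAI3 and the store channel ITPR3 had log2 fold changes of −0.18, −0.27 and −0.041 (SE 0.21, 0.19 and 0.23). These small medians moved with the fit. With olfactory receptor density as a covariate they were −0.0032 for the regulators, 0.059 for the kinases and scaffolds and 0.087 for calcium entry, and after background subtraction −0.020, −0.025 and −0.014. CSNK1A1, GSK3B and GSK3A then had log2 fold changes of 0.32, 0.20 and 0.067 with the covariate and 0.097, −0.0048 and −0.048 after subtraction, and CALM2 had 0.33 and 0.15. With 1 library left out, the median ranged from −0.34 to −0.055 for the regulators, from −0.44 to −0.070 for the kinases and scaffolds and from −0.27 to 0.049 for calcium entry, each lowest without complement replicate 3.

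The list of calcineurin-NFAT target genes had the highest median of the 5 lists. All 13 tested genes of the list had a log2 fold change above 0, as did 9020 of all 17512 tested genes, with a median of 0.79, and 7 had groups that did not overlap, all higher, where 8.95% of all tested genes were. With olfactory receptor density as a covariate, the median of the 13 was 0.44, with 9 above 0 and 4 below, and in the DESeq2 Wald test 12 were above 0. After background subtraction 9 of the 13 were tested, all above 0, with a median of 1.26, and with 1 library left out the median ranged from 0.73 to 0.91, with 11 to 13 above 0. Of these 13, 4 (PTGS2, CXCL8, EGR3 and F3) belong to the DEG of the study, which were chosen on these libraries, so their direction is not independent evidence. PTGS2, the inducible cyclooxygenase, had 24.8 to 51.4 CPM in baseline NPSC and 291 to 725 CPM in complement NPSC. EGR3, a zinc finger factor, had 8.70 to 15.8 CPM at baseline and 30.3 to 63.9 CPM after complement. Tissue factor F3 had 353 to 507 against 683 to 1196 CPM and the chemokine CXCL8 had 51.1 to 77.2 against 94.4 to 162 CPM. F3 and CXCL8 did not pass in edgeR (adjusted p = 0.261 and 0.245), and F3 passed in the DESeq2 Wald test.

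Of the other 9 target genes, 0 passed in edgeR and 0 in DESeq2, and 3 (EGR2, ITGB3 and TNFRSF9, named after their values were seen) were higher at an unadjusted p under 0.05, where 10.9% of all tested genes were. For TNFRSF9, expected background amounted to 65.3% of counts, and its log2 fold change of 1.08 was −0.14 with the density as a covariate and 1.71 after subtraction. Their median log2 fold change was 0.68, and it was 0.14, with 5 genes above 0 and 4 below, when the olfactory receptor density was a covariate. After background subtraction, 5 of the 9 were tested, all above 0, with a median of 0.84. With 1 library left out, the median ranged from 0.43 (without complement replicate 1) to 0.88 (without baseline replicate 1), and without complement replicate 2 there were 2 of the 9 below 0. Much of this group consists of cytokine genes of T cells that were hardly counted. The expected background came to 118% of the counts of IL5, 105% of CD40LG, 65.3% of FASLG and 57.2% of IL4, and these 4 genes no longer passed the expression filter after subtraction. EGR2, for which the background was 21.2% of its counts, had 14.6 to 25.4 CPM at baseline and 30.7 to 50.5 CPM after complement (log2 fold change 1.02, SE 0.25, adjusted p = 0.256 by edgeR). The part of background in the median of the list was not tested.

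For NFAT5, the list of osmotic target genes gave 0 calls in edgeR and 0 in DESeq2 among 7 tested genes, with 2 (SLC14A2 and AQP2, named after their values were seen) higher at an unadjusted p under 0.05, where 10.9% of all tested genes were, and a median log2 fold change of 0.030. Expected background amounted to 30.9% of the counts of SLC14A2 and 45.2% of those of AQP2. With olfactory receptor density as a covariate, the log2 fold change went from 1.11 to 0.24 for SLC14A2 and from 0.72 to −0.01 for AQP2, and the median of the list was −0.099, with 6 of 7 genes below 0. After background subtraction the log2 fold change was 1.53 for SLC14A2 and 0.86 for AQP2, and the median was 0.072. With 1 library left out, the median ranged from −0.13 (without baseline replicate 3) to 0.29 (without baseline replicate 1). The taurine transporter SLC6A6 had a log2 fold change of −0.38 (SE 0.30), the amino acid transporter SLC38A2 one of −0.35 (SE 0.20) and S100A4 one of 0.030 (SE 0.32).

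The cells carried Sertoli cell transcripts: CLDN11 had 291 to 567 CPM, INHA 242 to 526, SOX9 164 to 307, GATA4 88.5 to 223 and WT1 39.8 to 91.0 CPM over the 6 libraries. Of the 9 Sertoli cell markers tested, 0 passed in edgeR, 1 was higher and 5 lower at an unadjusted p under 0.05, and 4 were lower without overlap (WT1, GATA4, CLDN11, INHA). Of all tested genes, 10.9% were higher and 4.28% lower at that p, and 8.14% were lower without overlap. In bulk libraries, fewer cells of a type and less RNA per cell cannot be told apart. Of 10 T cell markers, 7 were in the files and 0 of these were at 0 in all libraries. None of the 7 passed in edgeR, 3 were higher at an unadjusted p under 0.05 (CD3D, CD247 and CD4) and 3 had higher groups without overlap (CD3D, CD2 and CD247), against 10.9% and 8.95% of all tested genes. Their summed level was 63.0 to 91.5 CPM in baseline NPSC and 80.9 to 138 CPM in complement NPSC, highest in complement replicates 1 and 2, and CD3D, a defining gene of T cells, had 3.43 to 5.26 and 6.25 to 9.35 CPM. Expected background amounted to 57.2% of the counts for CD3D, 68.9% for CD2, 38.0% for CD4 and 13.6% for CD247. The 5 endothelial markers in the files summed to 474 to 703 and to 342 to 797 CPM, the 7 macrophage markers to 99.4 to 151 and to 80.4 to 129 CPM (TYROBP and CSF1R lower at an unadjusted p under 0.05, TYROBP without overlap), the 7 peritubular myoid cell markers to 2697 to 3974 and to 2121 to 3899 CPM (MYH11 at 0), the 5 Leydig cell markers to 971 to 1179 and to 743 to 797 CPM (CYP11A1 at 0, with CYP17A1, INSL3 and LHCGR lower without overlap and a median log2 fold change of −0.47 over the 4 tested), and the 5 germ cell markers to 237 to 378 and to 176 to 324 CPM. The part of these cells in the counts of the NFAT genes was not tested.

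The genes whose profile was most like that of NFATC2 were sought among the 11054 tested genes with a symbol, by Pearson's r of log2 CPM over the 6 libraries, which all genes share. They were FAM13A (r = 0.981), PCOLCE (0.978), ARHGEF6 (0.968), TGFBI (0.967) and NFATC2IP (0.964), and their log2 fold changes of 0.095 to 0.16 were far below that of NFATC2. For RCAN1 they were ARHGEF25 (r = 0.990), MIDN (0.989), IL4R (0.989), HECTD2 (0.988) and RIPOR1 (0.986), with log2 fold changes of 0.015 to 0.11. With so many genes and 6 libraries, these r are a description of shape.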

How the data were processed

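A commercial sequencing service processed the reads, and the authors deposited raw counts per Ensembl pig gene, without normalization, with exon coordinates and the summed exon length (bp). The submitters' processing notes name Trimmomatic 0.36, STAR 2.5.2b and featureCounts of Subread 1.5.2; build, annotation and strand setting are not given in the sources used here. Symbols came from a table that paired 11804 of 25149 identifiers.

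The members and gene lists were chosen with earlier results of these data known. All genes were fitted with edgeR 4.0.16 in R 4.3.3 (filterByExpr, TMM, glmQLFit, quasi-likelihood F-test, Benjamini-Hochberg adjustment over 17512 genes); a gene was called at an adjusted p below 0.05 together with a change beyond 0.7 on the log2 scale, up or down. CPM used TMM library sizes and log2 CPM a prior count of 2. The SE is the log2 fold change divided by the root of F, and 95% intervals use the residual plus prior degrees of freedom. All 10 genes were named, with, per pathway list, the 3 most abundant per kb and the called ones, and the 5 genes most like NFATC2 and RCAN1; 1 gene that this rule names is not reported here.

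Alternatives were DESeq2 size factors, upper quartiles, the Wald test of DESeq2 1.42.0, at least 1 count in all or at least 10 in every library, a replicate block, each library left out, the 20 most counted genes left out, and olfactory receptor density as a covariate (on the log2 scale) or subtracted. The procedure was tested on simulated counts. Figures were drawn with matplotlib 3.10.9.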

Additional observations from a re-analysis of the deposited data

How the results depend on the processing

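The number of genes past the threshold was 18 (16 higher, 2 lower) and became 63 with the DESeq2 Wald test, 31 with every gene counted at least once, 63 with olfactory receptor density as a covariate, 31 after background subtraction and 9 (without baseline replicate 2), 327 (without baseline replicate 1) or up to 1540 (without complement replicate 3) with 1 library left out; upper-quartile scaling, under which the median over all tested genes went from 0.018 to 0.13 on the log2 scale, gave 21 higher and 0 lower. Of the 9 genes of the set, 0 passed, and 0 to 1 with 1 library left out, the 1 being NFATC2 without complement replicate 3; NFATC2 was chosen on these libraries, so nothing is read from its calls. Of the pathway genes, 2 passed, 3 in the DESeq2 Wald test (F3 added), 4 with the covariate, 4 after subtraction (F3 and CXCL8 added in both) and 2 to 4 with 1 library left out, the 4 being reached without baseline replicate 1 (EGR2 and SLC14A2 added) and without complement replicate 3 (F3 and SLC14A2 added). Directions turned for NFAT5 (0.18 with the covariate, 0.0099 after subtraction), PPP3CA (0.084) and PPP3CB (0.22) with the covariate, and RCAN1 (−0.21 to 0.29 with 1 library left out, 0.51 with the covariate); the cause was not tested. The log2 fold change ranged over the 15 alternatives from 0.72 to 1.34 for NFATC2, 0.34 to 0.55 for NFATC1, 0.31 to 0.61 for NFATC4 and −0.64 to −0.20 for NFATC3. It ranged from −0.44 to 0.18 for NFAT5, −0.52 to 0.08 for PPP3CA, −0.44 to 0.22 for PPP3CB and −0.48 to −0.26 for RCAN2, with the lowest value of NFAT5, PPP3CA and PPP3CB reached without complement replicate 3 (adjusted p = 0.0809, 0.0670 and 0.102 by edgeR). Depth was lowest for RCAN2, with 35 to 92 counts per library.

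With a replicate block in edgeR, 1575 genes passed, with 7 pathway genes among them (PTGS2, EGR3, F3, CXCL8, EGR2, SLC14A2 and AQP2). Of the 9 genes of the set, 1 passed, which was NFATC2, and since it was chosen on these libraries, nothing is read from its call. In this fit NFATC3 and NFATC4 had an adjusted p of 0.0375 and 0.0414 by edgeR at log2 fold changes of −0.48 and 0.46, short of 0.7. Deviations from the group means of same-numbered libraries correlated at 0.456, 0.0302 and 0.482 for replicates 1, 2 and 3 over genes. Replicates 1 and 3 of the baseline correlated best with their own number, and baseline replicate 2 correlated at 0.0665 at most with any complement library. Complement replicate 2 correlated best with baseline replicate 1, at 0.284 against 0.0302 for its own number. Nothing in the sources used here says that a number marks a shared litter or batch, and whether it does was not settled.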

Other observations

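RCAN1 and PPP3CA encode the inhibitor and a catalytic subunit of calcineurin. Counts of RCAN1 per count of PPP3CA were 1.05, 1.01 and 0.930 in baseline replicates 1 to 3 and 1.36, 1.09 and 1.39 in complement replicates 1 to 3, a mean of 0.999 ± 0.0625 against 1.28 ± 0.162 (SD, n = 3). The ranges did not overlap, though those of each gene alone did. The pair was chosen after its values had been seen, and the difference was not tested.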
